A study of Homo sapiens with 12 samples.

Results

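The hypoxia and glycolysis genes are 39 genes, chosen by symbol, that encode oxygen sensors, targets of the hypoxia-inducible factor (HIF), glucose and lactate transporters, the enzymes of glycolysis and the enzymes that set the fate of pyruvate. They were found among 27814 named genes of a bulk RNA sequencing table of BT474 cells, an established luminal breast cancer line with amplified HER2. Of the 39, 37 passed the filter on low counts and were tested among 16208 genes. ANGPTL4, a secreted regulator of lipoprotein lipase, and SLC2A3, the glucose transporter GLUT3, did not pass, with group means of at most 0.220 and 0.136 CPM, the usual count scaled for sequencing depth.

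There were 4 groups of 3 libraries: parental and BRD8 knockout (KO) cells, each in DMSO or in 200 nM neratinib for 4 h. The knockout cells are called KO-labelled throughout. BRD8 is a bromodomain subunit of a chromatin-modifying complex that holds EP400 and TIP60, and neratinib binds HER2 and EGFR covalently and blocks their kinase activity. All groups share the same serum-supplemented medium, and no label names a low-oxygen condition. Clonal or pooled origin of the KO cells is not stated. Nor is it stated that replicates came from separate cultures, and p-values then cover only the spread among libraries, which may be technical.

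In well-oxygenated cells the prolyl hydroxylases EGLN1 and EGLN3 mark the alpha subunits of HIF for destruction. When oxygen is low the subunit survives, pairs with ARNT and binds short promoter motifs of target genes, many of them glycolytic. Several targets, the hydroxylases included, also feed back on HIF. In HER2-amplified breast cancer cells, kinase signalling through PI3K and mTOR is known to raise HIF1A protein and glycolysis with oxygen present, and MYC is known to bind many of the same glycolysis genes. Control of HIF1A by oxygen acts on the protein, which was not measured here.

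The core of the HIF binding motif is ACGTG or GCGTG, and both were searched on both strands in the 250 bases upstream of each start in the promoter table of RefSeq (GRCh38.p14). The table matched 34 of the 39 members; BNIP3L, VEGFA, PFKFB2, SLC2A3 and NDRG1 were not matched. ACGTG was found for 20 of the 34 (58.8%), against 24.5% of 18025 genes. GCGTG was found for 17 of the 34 (50.0%), against 43.5%, and either form for 28 (82.4%), against 54.7%. The E-box CACGTG, which contains ACGTG and is the form MYC is known to bind, was found for 7 (20.6%), against 9.15%. Members have more listed starts per gene than genes in general, which raises a share counted per gene. Counted per window, ACGTG was in 37.1% of 62 member windows against 19.9% of 24557, GCGTG in 32.3% against 37.2%, so that its direction turned, either form in 59.7% against 48.3%, and CACGTG in 11.3% against 7.14%. A match of letters is a description of the window and not a measured binding site. The stretches below belong to the member with the largest neratinib fall (EGLN3), the members with the largest difference in each direction between KO-labelled and parental cells (SLC16A3 and CA9), and LDHA. Each is written 5' to 3' on the gene's strand with matches in capitals. Where a start had annotated exons in its window, the stretch ends before them or is cut to a site of 30 bases. The LDHA stretches lie at chr11:18394313-18394387 and chr11:18394471-18394500 on the plus strand. The first has an E-box and the second has an E-box followed by a separate core match.
LDHA upstream: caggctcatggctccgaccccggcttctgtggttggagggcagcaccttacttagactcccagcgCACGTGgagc
LDHA site: actcaCACGTGggttcccgCACGTccgccg
SLC16A3 has several listed starts, and the stretch shown is from the one whose window holds ACGTG. It lies at chr17:82228792-82229031 on the plus strand and holds 2 matches. The EGLN3 stretch lies at chr14:33951082-33951324 on the minus strand and its window holds 0 matches. The CA9 site lies at chr9:35673898-35673927 on the plus strand and holds 1 match, read as CACGT because it is on the opposite strand.
SLC16A3 upstream: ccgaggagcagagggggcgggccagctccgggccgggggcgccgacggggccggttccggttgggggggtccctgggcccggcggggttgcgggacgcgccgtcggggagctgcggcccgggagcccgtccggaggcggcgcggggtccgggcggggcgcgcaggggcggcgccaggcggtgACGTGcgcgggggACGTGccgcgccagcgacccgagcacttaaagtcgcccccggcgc
EGLN3 upstream: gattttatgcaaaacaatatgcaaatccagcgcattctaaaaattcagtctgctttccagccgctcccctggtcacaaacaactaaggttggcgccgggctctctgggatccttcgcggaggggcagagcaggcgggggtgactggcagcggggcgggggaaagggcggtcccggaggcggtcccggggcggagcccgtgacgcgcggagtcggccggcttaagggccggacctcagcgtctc
CA9 site: tcgtttccaatgCACGTacagcccgtacac

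Libraries held 32471198 to 44726160 counts over named genes. BRD8, on chromosome 5 from 138139766 to 138178986 (GENCODE 29, GRCh38), checks the labels. Its mRNA was at 64.9, 63.5 and 64.1 CPM in parental and 67.4, 66.1 and 68.8 CPM in KO-labelled libraries in DMSO, and at 232, 242 and 233 against 153, 158 and 157 CPM in neratinib. BRD8 mRNA was therefore not lower in the KO-labelled cells in DMSO, and an edit that stops only the protein cannot be seen in these counts. The 10 luminal and HER2 markers were all present, with ERBB2 at 8176 CPM in parental DMSO. The summed level of 6 basal or mesenchymal markers, 5 of them tested, ran from 32.2 to 32.7 CPM (parental) and 45.8 to 50.1 CPM (KO-labelled) without the drug, and from 51.5 to 52.6 CPM and 84.1 to 87.3 CPM with it, with VIM the largest part. The 7 blood and vessel markers, 3 tested, summed to 15.4 to 16.3, 38 to 40, 20.4 to 22.7 and 43.1 to 47.4 CPM in the same order, and the 4 stromal markers, 2 tested, to 70.2 to 76.1, 81.5 to 88.6, 89.2 to 92.5 and 113 to 117 CPM. PTPRC and CD3E were at 0 in parental DMSO, CD3E also in KO-labelled DMSO and parental neratinib, PDGFRB in both parental groups and DCN in parental neratinib. Mitochondrially encoded genes took 2.97% ± 0.16, 2.74% ± 0.24, 4.51% ± 0.37 and 5.21% ± 0.081 of counts (SD, n = 3) in the same order. The part of these markers and shares in the results below was not tested. With mitochondrial genes left out of the fit, 184 of 185 member results kept their call, and none called in either fit changed direction.

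Counts per kilobase of annotated exon set levels only roughly side by side between genes. The length is that of all annotated exons of a gene together (8571 bases for PKM, 2700 for TPI1). It is not that of the transcript expressed. Ranks between genes depend on this length, and the SD does not cover that. In parental DMSO libraries GAPDH was the highest member at 1669 ± 17 CPM per kilobase (SD, n = 3 throughout), followed by ALDOA at 553 ± 4.1, PKM at 308 ± 6.3, TPI1 at 303 ± 3.7, PGK1 at 294 ± 2.0 and ENO1 at 290 ± 1.7. PKM and TPI1 differed by less than the SD of PKM. The order of members after GAPDH is not resolved, since another choice of length could change it. LDHA stood at 124 ± 1.1, HK1 at 53.3 ± 0.68 and HIF1A at 28.0 ± 0.32. By this measure the lowest tested members were PDK1 (14883 bases) at 1.55 ± 0.064, CA9 at 0.952 ± 0.22 and ADM at 0.729 ± 0.12. Together the 39 genes took 1.73% ± 0.0058 of all counts in parental DMSO, 1.94% ± 0.0033 in KO-labelled DMSO, 1.34% ± 0.0044 in parental neratinib and 1.6% ± 0.0088 in KO-labelled neratinib libraries.

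**Figure D1:**
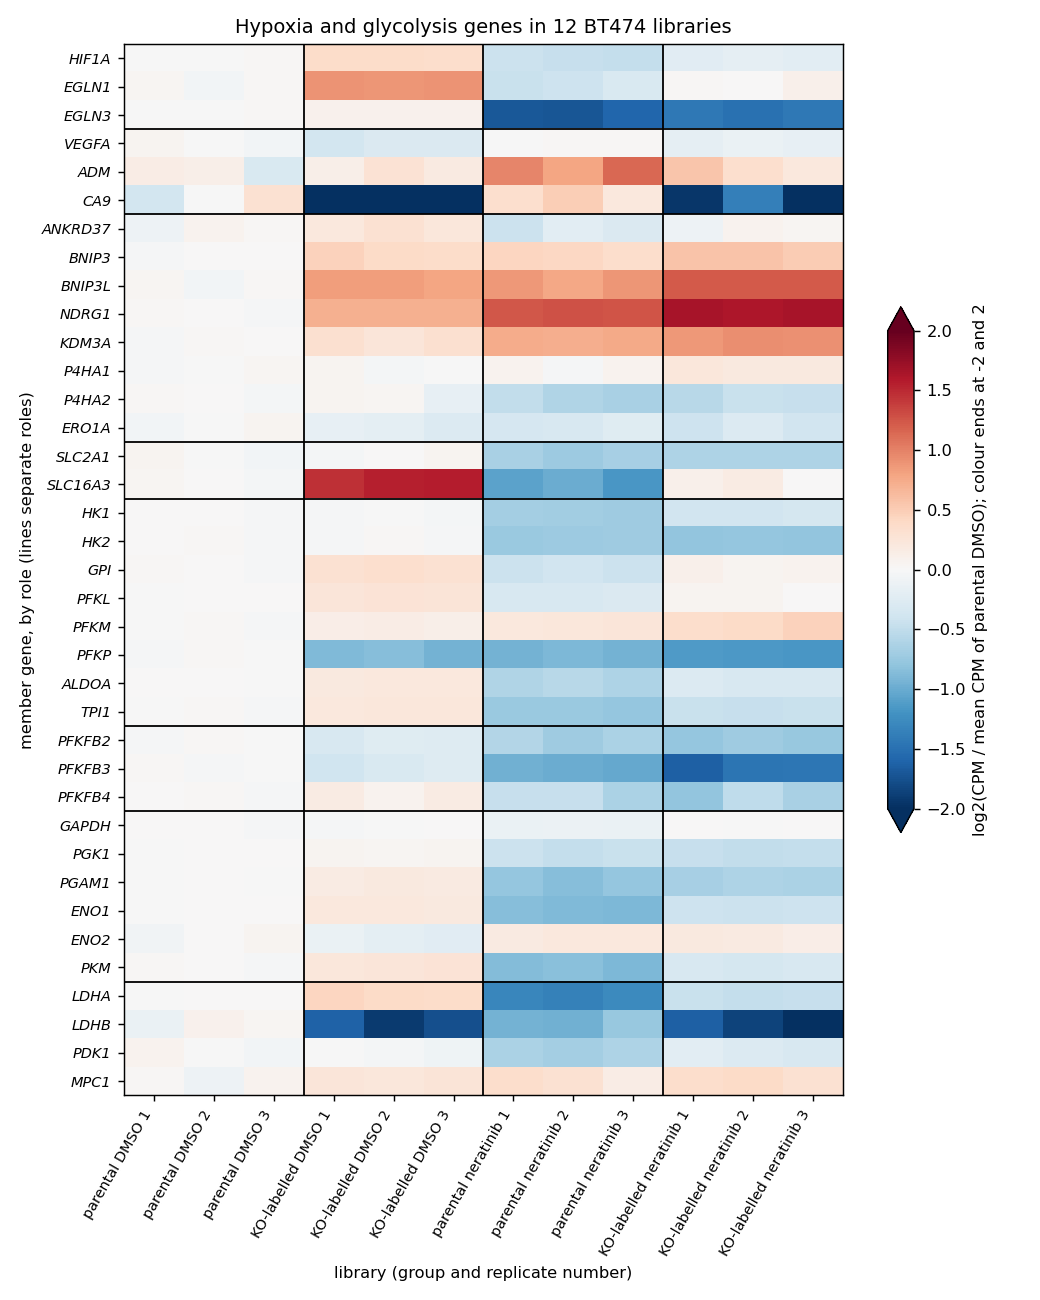
Level of each of the 37 tested members (one line each, grouped by role) in each of the 12 libraries (columns), as log2 of CPM over the mean of the parental DMSO libraries; colours end at -2 and 2. Most glycolysis members are below the parental DMSO level in neratinib, and BNIP3, BNIP3L, NDRG1 and KDM3A are above it in all other groups.

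A difference was called at an adjusted p below 0.05 (edgeR's quasi-likelihood test, Benjamini-Hochberg adjustment over all 16208 genes), and counts are given for calls of any size and for those of at least 1.5-fold. Because replicates differed little (common biological coefficient of variation 1.86%), most genes were called in most comparisons, and the members have to be read against that share. With neratinib, 26 of the 37 members fell and 8 rose in parental cells, where 38.9% of all tested genes fell and 41.8% rose (80.7% called). In KO-labelled cells 24 fell and 9 rose, where 38.4% of all fell and 38.9% rose (77.2% called). At 1.5-fold or more, 16 members fell and 4 rose in parental cells, where 17.3% and 22.5% of all tested genes did, and 11 fell and 3 rose in KO-labelled cells, where 14.2% and 18.9% did. The median log2 change of the members was -0.46 in parental and -0.26 in KO-labelled cells, against 0.04 and 0.02 over all genes. The members that fell in both genotypes, which share no library in these comparisons, were 24 of 37, against 32.2% of all tested genes. In bulk RNA a change in some cells and a smaller change in all of them cannot be told apart.

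In KO-labelled against parental cells the members moved less. In DMSO 21 were higher and 8 lower, where 36% of all tested genes were higher and 35.6% lower. In neratinib 22 were higher and 7 lower, where 34.7% of all were higher and 36.9% lower; 71.6% were called in each. At 1.5-fold or more, 4 were higher and 3 lower in DMSO, against 14.3% and 8.81% of all tested genes, and 2 were higher and 3 lower in neratinib, against 13.9% and 9.06%. None of those counts, as a share of the 37 members, was above the background. The median log2 difference of the members was 0.13 in DMSO and 0.16 in neratinib, against 0.00 and -0.02 over all genes. In both treatments 18 members were higher and 6 were lower, the 6 being VEGFA, CA9, PFKP, PFKFB2, PFKFB3 and LDHB. The share of all tested genes called alike in both treatments was not counted. It cannot exceed 34.7% for higher and 35.6% for lower, the smaller of the shares above. The PFKFB2 call in neratinib (log2 difference -0.12, adjusted p = 0.0267) was lost with DESeq2, with the filter at 5 CPM, with only the 2 groups compared and in 4 fits that left out 1 library: parental neratinib replicates 1 and 3 and KO-labelled neratinib replicates 1 and 3 (adjusted p 0.0578 to 0.21). P4HA2, SLC2A1 and HK2 were called in neither.

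HIF1A, the oxygen-regulated alpha subunit, had mRNA at 144, 143 and 146 CPM in parental DMSO, 185, 185 and 185 in KO-labelled DMSO, 107, 104 and 103 in parental neratinib and 124, 127 and 125 in KO-labelled neratinib libraries. No groups overlapped, with KO-labelled DMSO highest and parental neratinib lowest. HIF1A fell with neratinib by 0.46 on the log2 scale in parental cells (SE 0.022, adjusted p = 6.60e-23) and by 0.56 in KO-labelled cells (SE 0.021, adjusted p = 1.11e-26). In KO-labelled cells it was 1.28-fold higher in DMSO (adjusted p = 1.38e-19) and 1.19-fold higher in neratinib (adjusted p = 1.12e-13).

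EGLN3 (chromosome 14, 33924231 to 34462774), the hydroxylase known for its strong induction by HIF, showed the largest neratinib fall of any member in either genotype. It stood at 171, 171 and 175 CPM in parental DMSO, 183, 183 and 182 in KO-labelled DMSO, 53.2, 52.5 and 57.3 in parental neratinib and 64.2, 61.3 and 64.0 in KO-labelled neratinib libraries. All 6 neratinib libraries were below all 6 DMSO libraries, and the genotypes lay close together in each treatment. KO-labelled libraries were slightly higher, 1.06-fold in DMSO (adjusted p = 0.001) and 1.16-fold in neratinib (adjusted p = 2.16e-08). The neratinib fall of EGLN3 was 3.17-fold in parental cells (log2 change -1.66, SE 0.026, adjusted p = 2.73e-41) and 2.90-fold in KO-labelled cells (-1.53, SE 0.026, adjusted p = 3.74e-40). EGLN1, the main hydroxylase in most cells, differed by genotype and by drug. Its DMSO levels were 22.4 ± 0.741 (parental) and 41.6 ± 0.370 CPM (KO-labelled), 1.86-fold higher in the latter (adjusted p = 1.24e-23). Neratinib lowered EGLN1 1.31-fold to 17.1 ± 0.854 CPM in parental cells (adjusted p = 3.73e-10). In KO-labelled cells it fell 1.8-fold to 23.1 ± 0.930 CPM (adjusted p = 3.43e-23).

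CA9 (chromosome 9, 35673856 to 35681159), the cell-surface carbonic anhydrase that is a classical HIF target, was the member with the largest genotype difference. It stood at 1.23, 1.58 and 1.95 CPM in parental DMSO, 0.279, 0.205 and 0.184 in KO-labelled DMSO, 2.01, 2.24 and 1.84 in parental neratinib and 0.414, 0.615 and 0.335 in KO-labelled neratinib libraries. Every KO-labelled library was below every parental library. The level was 6.99-fold lower in KO-labelled cells in DMSO (log2 difference -2.81, SE 0.270, adjusted p = 1.58e-12) and 4.33-fold lower in neratinib (-2.11, SE 0.218, adjusted p = 1.31e-11). These are small numbers, with 182, 26, 237 and 52 counts summed over parental DMSO, KO-labelled DMSO, parental neratinib and KO-labelled neratinib libraries. The called rise with neratinib in KO-labelled cells (2.06-fold, adjusted p = 0.0086) rested on KO-labelled neratinib replicate 2, without which the log2 change was 0.73 with an adjusted p of 0.115. In parental cells the log2 change was 0.35 (adjusted p = 0.0506). The difference between the 2 responses was not called (0.69, adjusted p = 0.157). Of the 50-base windows of CA9 exons, 33.0% also occur in transcripts of ARHGEF39, which overlaps it, and the counts cannot be split by strand; in DMSO, ARHGEF39 itself had 7.72 ± 0.370 (parental) and 5.53 ± 0.197 CPM (KO-labelled).

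ADM, the vasodilator peptide adrenomedullin, stood at 2.19, 2.15 and 1.61 CPM in parental DMSO, 2.155, 2.41 and 2.24 in KO-labelled DMSO, 3.905, 3.44 and 4.42 in parental neratinib and 2.90, 2.505 and 2.29 in KO-labelled neratinib libraries. The parental neratinib libraries stood above the other 9. ADM rose 1.98-fold with neratinib in parental cells (adjusted p = 2.34e-09), whereas in KO-labelled cells the log2 change was 0.17 (adjusted p = 0.257). In neratinib it was 1.54-fold lower in KO-labelled cells (adjusted p = 1.39e-05). VEGFA, the angiogenic growth factor, had DMSO levels of 112 ± 4.17 (parental) and 89.9 ± 2.48 CPM (KO-labelled), 1.25-fold lower (adjusted p = 1.64e-14), and at 113 ± 1.13 and 100.4 ± 2.06 CPM in neratinib. Its log2 change with neratinib in parental cells was 0.01 (adjusted p = 0.705).

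**Figure D2:**
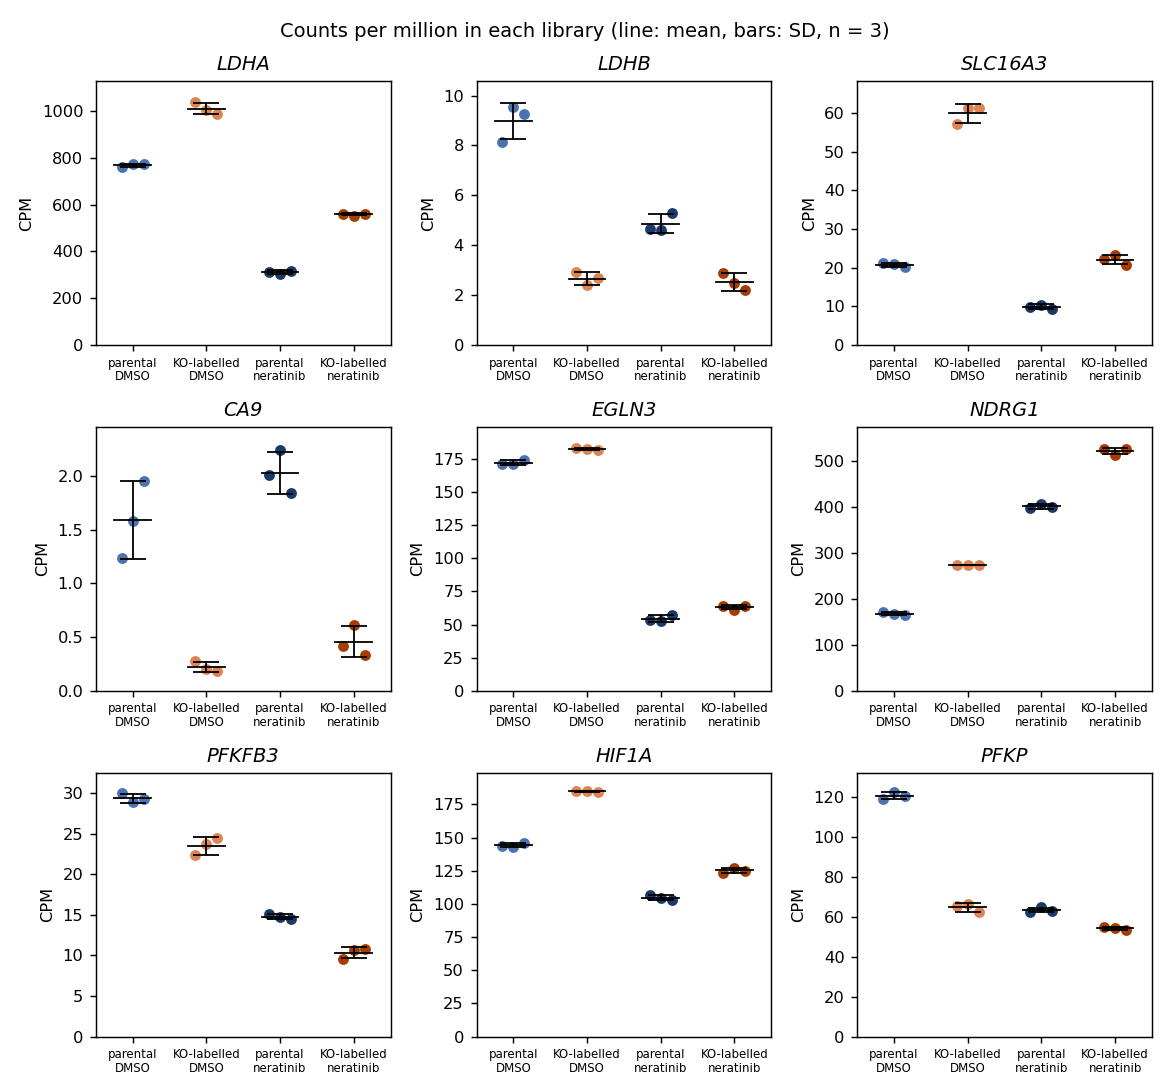
CPM of 9 members in each of the 12 libraries, with the group mean as a line and the SD as bars (n = 3); every vertical axis starts at 0. EGLN3 is low in all 6 neratinib libraries, CA9 is low in all 6 KO-labelled libraries, and SLC16A3 is highest in KO-labelled DMSO at 57.1 to 61.4 CPM.

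Among the other hypoxia targets, 4 of 8 rose and 3 fell with neratinib in parental cells, and 5 rose and 3 fell in KO-labelled cells. Over all tested genes 41.8% rose and 38.9% fell in parental and 38.9% rose and 38.4% fell in KO-labelled cells. NDRG1, a stress-responsive gene induced by hypoxia, stood at 170, 168 and 165 CPM in parental DMSO, 274, 273 and 274 in KO-labelled DMSO, 397, 406 and 399 in parental neratinib and 525, 513 and 526 in KO-labelled neratinib libraries. The groups did not overlap and each step was upward, by genotype and by drug. The neratinib rise was 2.39-fold in parental cells (log2 change 1.26, SE 0.019, adjusted p = 1.41e-41) and 1.90-fold in KO-labelled cells (0.93, SE 0.019, adjusted p = 2.99e-37). BNIP3L, a mitophagy receptor also known as NIX, had 50.6 ± 1.80, 89.7 ± 1.88, 90.9 ± 3.49 and 118 ± 0.478 CPM in the same order of groups, a 1.80-fold rise in parental cells and 1.32-fold in KO-labelled cells. Its KO-labelled DMSO and parental neratinib libraries overlapped, so the order of these groups is not resolved. Its relative BNIP3 was at 95.4 ± 1.14, 126 ± 4.85, 126 ± 3.35 and 139 ± 3.16 CPM. KDM3A, a histone H3 lysine 9 demethylase, rose 1.67-fold in parental cells (adjusted p = 1.68e-29) and 1.53-fold in KO-labelled cells (adjusted p = 9.32e-27). In the opposite direction P4HA2, a collagen prolyl hydroxylase subunit, fell 1.49-fold in parental and 1.38-fold in KO-labelled cells, while the log2 change of its partner P4HA1 was 0.04 in parental cells (adjusted p = 0.267). ERO1A, the endoplasmic reticulum oxidase, and ANKRD37 fell by 0.30 and 0.32 on the log2 scale in parental cells. ANKRD37 overlaps UFSP2, with 30.4% of its windows shared, so its counts are uncertain. The same holds for P4HA2, which overlaps P4HA2-AS1 with 15.2% of its windows shared.

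SLC16A3 (chromosome 17, 82228397 to 82261129) encodes MCT4, the transporter that exports lactate from glycolytic cells. It stood at 21.3, 20.9 and 20.1 CPM in parental DMSO, 57.1, 61.25 and 61.4 in KO-labelled DMSO, 9.93, 10.45 and 9.25 in parental neratinib and 22.2, 23.3 and 20.8 in KO-labelled neratinib libraries. The KO-labelled neratinib libraries overlapped the parental DMSO libraries, while the other groups stood apart. SLC16A3 was 2.89-fold higher in KO-labelled cells in DMSO (log2 difference 1.53, SE 0.041, adjusted p = 4.70e-32) and 2.25-fold higher in neratinib (1.17, SE 0.056, adjusted p = 1.41e-22). Neratinib lowered it 2.11-fold in parental (adjusted p = 1.46e-21) and 2.7-fold in KO-labelled cells (adjusted p = 1.50e-31). SLC2A1, the glucose importer GLUT1, stood at 80.2 ± 3.19 and 80.8 ± 2.44 CPM in DMSO and 50.0 ± 1.15 and 52.3 ± 0.0466 CPM in neratinib for parental and KO-labelled cells. The falls were 1.6-fold and 1.54-fold, and the genotype difference was 0.01 on the log2 scale in DMSO (adjusted p = 0.794) and 0.06 in neratinib (adjusted p = 0.0836). The latter passed with the filter at 5 CPM (0.09, adjusted p = 0.0127), with only the 2 groups compared (0.08, adjusted p = 0.0276) and without parental DMSO replicate 3, KO-labelled DMSO replicate 1 or parental neratinib replicate 1 (adjusted p 0.0449 to 0.0468).

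In upper glycolysis 7 of 8 members fell with neratinib in each genotype, against 38.9% of all tested genes in parental and 38.4% in KO-labelled cells, and PFKM, a phosphofructokinase isoenzyme, rose in each. The median log2 change was -0.64 in parental and -0.30 in KO-labelled cells. HK1, HK2, PFKP, ALDOA and TPI1 fell at least 1.5-fold in parental cells, and HK2 and TPI1 in KO-labelled cells. The largest fall in parental cells was that of PFKP, the platelet-type phosphofructokinase, which stood at 119, 123 and 120 CPM in parental DMSO, 65.5, 66.7 and 62.4 in KO-labelled DMSO, 62.7, 64.9 and 62.9 in parental neratinib and 55.2, 54.3 and 53.65 in KO-labelled neratinib libraries. PFKP was thus high in parental DMSO only, and KO-labelled DMSO and parental neratinib libraries overlapped. It fell 1.90-fold with neratinib in parental cells (adjusted p = 2.42e-31) and 1.20-fold in KO-labelled cells (adjusted p = 1.61e-10), and was 1.86-fold lower in KO-labelled cells in DMSO (adjusted p = 3.93e-30). HK2, the hexokinase most often induced in tumours, fell 1.66-fold in parental and 1.72-fold in KO-labelled cells, the largest fall of the upper enzymes in the latter. GPI, glucose-6-phosphate isomerase, was 1.25-fold higher in KO-labelled cells in DMSO and 1.40-fold higher in neratinib, the largest rise by genotype among these 8. ALDOA, TPI1 and GPI share 88.1%, 20.8% and 14.8% of windows with other transcripts, so their counts are uncertain by an amount that was not measured.

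The PFKFB enzymes make and remove fructose 2,6-bisphosphate, the activator of phosphofructokinase. All 3 fell with neratinib in both genotypes, as 32.2% of all tested genes did. PFKFB3, the isoenzyme with the strongest kinase activity, stood at 29.97, 28.9 and 29.3 CPM in parental DMSO, 22.4, 23.7 and 24.5 in KO-labelled DMSO, 15.1, 14.7 and 14.5 in parental neratinib and 9.53, 10.6 and 10.8 in KO-labelled neratinib libraries. No groups overlapped; the level was lower in KO-labelled cells in each treatment and lower with neratinib in each genotype. The neratinib fall was 1.98-fold in parental (log2 change -0.99, SE 0.047, adjusted p = 5.16e-23) and 2.27-fold in KO-labelled cells (-1.18, SE 0.053, adjusted p = 7.43e-24). PFKFB3 and PFKFB2 were lower in KO-labelled cells in DMSO, 1.25-fold and 1.21-fold. PFKFB4 was higher by 0.13 on the log2 scale with an adjusted p of 0.0456, a call lost with the block, without the filter, with DESeq2 or its size factors, and in 8 fits that left out 1 library (adjusted p 0.0509 to 0.187).

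In lower glycolysis 5 of 6 members fell with neratinib in parental cells and 4 in KO-labelled cells, against the same 38.9% and 38.4% of all tested genes. ENO1, enolase, fell 1.84-fold in parental and 1.54-fold in KO-labelled cells, and PKM, pyruvate kinase, 1.82-fold and 1.5-fold, the second just under the 1.5-fold line. PGAM1, phosphoglycerate mutase, fell 1.73-fold and 1.76-fold; it shares 43.3% of windows with PGAM4 and other copies. PGK1, phosphoglycerate kinase, fell 1.37-fold and 1.44-fold. ENO2, the neuron-type enolase, went the other way, rising 1.15-fold and 1.28-fold. By genotype PKM had the largest higher level, 1.19-fold in DMSO and 1.44-fold in neratinib, and ENO2 was the only one of the 6 called lower, 1.14-fold in DMSO. GAPDH, often used as a reference gene, was at 4974 ± 50.1, 4934 ± 69.6, 4557 ± 29.8 and 4980 ± 37.8 CPM in parental DMSO, KO-labelled DMSO, parental neratinib and KO-labelled neratinib libraries. It fell 1.09-fold with neratinib in parental cells (adjusted p = 1.38e-08). In KO-labelled cells its log2 change was 0.01 (adjusted p = 0.494), or 0.07 (adjusted p = 0.00018) when scaled by library totals alone. Of GAPDH windows 31.4% also occur in other transcripts, so its counts are uncertain too.

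LDHA (chromosome 11, 18394388 to 18408425), the subunit of lactate dehydrogenase that favours lactate, stood at 762, 773 and 773 CPM in parental DMSO, 1038, 1005 and 989 in KO-labelled DMSO, 313, 302 and 318 in parental neratinib and 562, 554 and 560 in KO-labelled neratinib libraries. No groups overlapped, and in each treatment KO-labelled libraries were higher. Neratinib lowered LDHA 2.47-fold in parental cells (log2 change -1.31, SE 0.020, adjusted p = 2.11e-41) and 1.81-fold in KO-labelled cells (-0.86, SE 0.020, adjusted p = 7.79e-35). The genotype difference was 1.31-fold in DMSO (adjusted p = 4.39e-22) and 1.80-fold in neratinib (adjusted p = 1.40e-33).

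LDHB (chromosome 12, 21635342 to 21757857), the subunit that favours pyruvate, moved against LDHA by genotype. It stood at 8.15, 9.53 and 9.24 CPM in parental DMSO, 2.94, 2.39 and 2.67 in KO-labelled DMSO, 4.67, 4.62 and 5.30 in parental neratinib and 2.90, 2.48 and 2.21 in KO-labelled neratinib libraries. Both KO-labelled groups overlapped each other and lay below both parental groups. LDHB was 3.37-fold lower in KO-labelled cells in DMSO (log2 difference -1.75, SE 0.098, adjusted p = 3.11e-20) and 1.93-fold lower in neratinib (-0.95, SE 0.113, adjusted p = 5.82e-10). It fell 1.84-fold with neratinib in parental cells (adjusted p = 1.19e-12), and its log2 change in KO-labelled cells was -0.07 (adjusted p = 0.605). Of LDHB windows 57.3% also occur in an overlapping gene model, AC010197.2, and 58.5% in that model or in LDHBP2. PDK1, the kinase that shuts off pyruvate dehydrogenase, fell 1.56-fold in parental and 1.17-fold in KO-labelled cells. MPC1, a subunit of the mitochondrial pyruvate carrier, rose 1.21-fold with neratinib in parental cells (adjusted p = 0.000283) and was 1.18-fold higher in KO-labelled cells in DMSO (adjusted p = 0.00129).

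The difference between the neratinib responses, that of KO-labelled minus that of parental cells, was tested directly. The difference was higher for 18 members and lower for 11, where 46.1% of all tested genes were called. At 1.5-fold or more it was higher for 2 and lower for 1, against 4.3% and 5.13% of all tested genes. PFKP (log2 difference of responses 0.67, SE 0.040, adjusted p = 3.42e-18) and LDHB (0.81, SE 0.156, adjusted p = 3.28e-05) had the larger fall in parental cells, and both were already low in KO-labelled DMSO. ADM rose in parental cells and its difference was -0.82 (SE 0.187, adjusted p = 0.000333). At any size, where the difference was higher for 21.5% and lower for 24.6% of all tested genes, it was higher for 6 of 8 upper glycolysis members and lower for 0, higher for 4 and lower for 1 of 6 in lower glycolysis, and higher for 3 of 4 in the fate of pyruvate. Some of these calls were small and not kept: those of PFKL, ALDOA and TPI1 were lost with library totals as the scale (adjusted p 0.0574, 0.0696 and 0.0959), that of ENO2 with library totals, no filter, DESeq2, the block, mitochondrial genes left out and 8 of the fits without 1 library (adjusted p 0.055 to 0.115), and that of PGK1, the lower one, with DESeq2, its size factors and 6 fits without 1 library (0.0559 to 0.292). Most members of the glycolysis and pyruvate roles fell in parental cells, and genes that fell there had a different background. Of the 6299 tested genes that fell in parental cells, the difference was higher for 40.6% and lower for 14.8%. Of the 26 members that fell there, it was higher for 15 and lower for 6. LDHA had a difference of 0.45 (adjusted p = 1.66e-17), PDK1 0.41 (adjusted p = 2.13e-06), HK1 0.34 (adjusted p = 2.24e-14), PKM 0.28 (adjusted p = 8.23e-12) and ENO1 0.26 (adjusted p = 1.44e-11). HIF1A had -0.10 (adjusted p = 0.00546), a call lost with DESeq2 (-0.08, adjusted p = 0.0587) and without parental neratinib replicate 1 (-0.07, adjusted p = 0.111). EGLN1 (-0.46) and SLC16A3 (-0.36) also had called negative differences, with a larger fall in KO-labelled cells. Those of BNIP3L (-0.45), NDRG1 (-0.33) and BNIP3 (-0.26) were negative with a smaller rise in KO-labelled cells. Of the 8 members that rose in parental cells, the difference was lower for 5 and higher for 1. Of all tested genes that rose there, it was lower for 39.1% and higher for 8.53%. For HK2, SLC2A1 and PGAM1 the difference was -0.05 (SE 0.037, adjusted p = 0.287), 0.05 (SE 0.044, adjusted p = 0.332) and -0.02 (SE 0.029, adjusted p = 0.525). Across the 37 members the 2 responses had a Pearson correlation of 0.86, the same as the 0.86 across all genes; the points come from separate libraries, but members are not independent replicates.

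**Figure D3:**
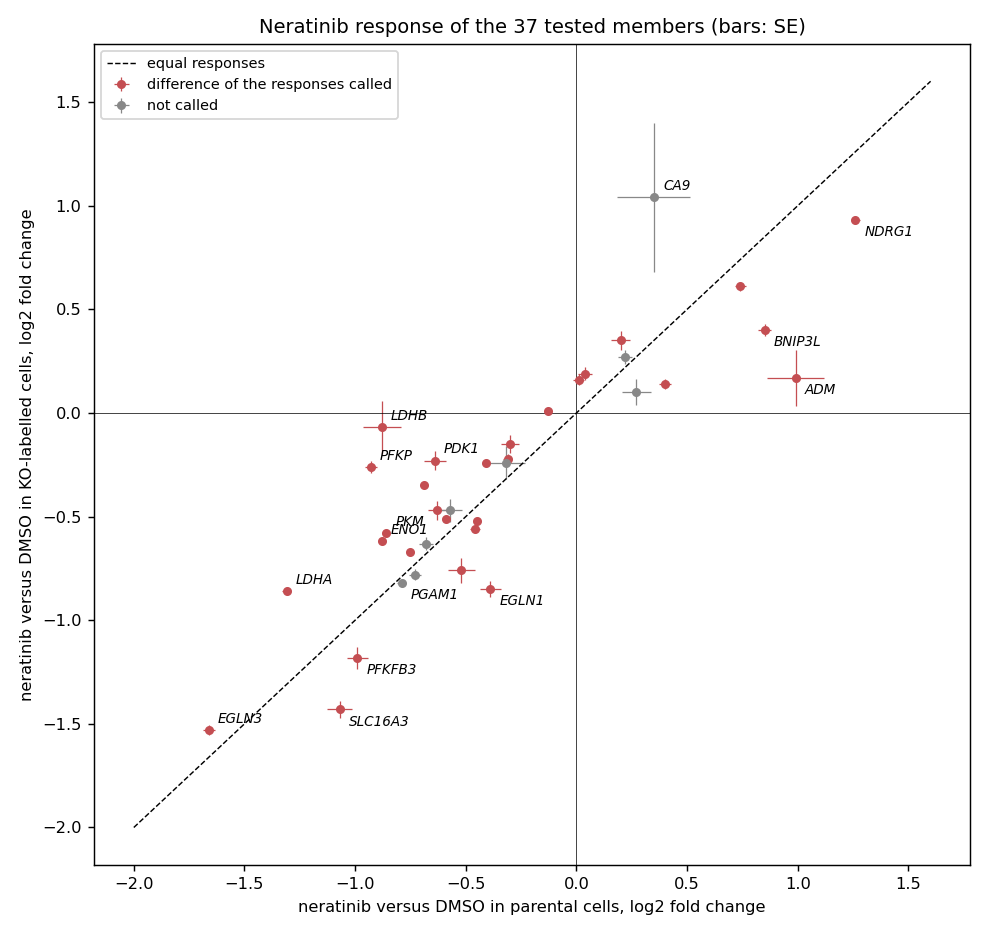
Neratinib response (log2 fold change) in parental cells, horizontal, and in KO-labelled cells, vertical, of the 37 tested members, with SE as bars; red points have a called difference between the responses and the dashed line marks equal responses. PFKP, LDHB, LDHA and PDK1 lie above the line, with a smaller fall in KO-labelled cells, and ADM, BNIP3L, EGLN1 and SLC16A3 lie below it.

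The mix of members within families of related genes is given as shares of the family's CPM per kilobase. The size of a share depends on the exon lengths used. With 3 libraries against 3, an exact two-sided permutation test cannot give a p below 0.1, so no share passed, and the 52 tests had adjusted p-values of 0.121 or more. PFKP held 45.3%, 45.6% and 45.3% of phosphofructokinase in parental DMSO, 27.8%, 27.8% and 26.8% in KO-labelled DMSO, 33.4%, 34.0% and 33.0% in parental neratinib and 26.0%, 25.6% and 25.7% in KO-labelled neratinib libraries. In the same order of groups PFKL, the liver type, held 45% ± 0.22, 60.7% ± 0.58, 50.8% ± 0.50 and 58.2% ± 0.68, and PFKM 9.62% ± 0.098, 11.9% ± 0.017, 15.7% ± 0.051 and 16% ± 0.78, while the family total was 55.0 ± 0.57, 48.9 ± 0.70, 39.2 ± 0.33 and 43.7 ± 0.40 CPM per kilobase. By plain counts PFKP held 31.7% ± 0.17, 17.4% ± 0.43, 22.1% ± 0.43 and 16.4% ± 0.13 in that order. PFKL held 58.1% ± 0.22, 71.2% ± 0.46, 62.1% ± 0.43 and 68.3% ± 0.72. In parental DMSO PFKL was thus the larger by counts, while PFKP and PFKL were about equal per kilobase. LDHB held 2.37% ± 0.17 of lactate dehydrogenase in parental and 0.546% ± 0.048 in KO-labelled DMSO libraries, and 3.15% ± 0.18 and 0.934% ± 0.12 in neratinib. By plain counts these LDHB shares were 1.15% ± 0.083, 0.263% ± 0.023, 1.54% ± 0.089 and 0.451% ± 0.061, in the same order. EGLN1 held 11.6% ± 0.32 and 18.8% ± 0.16 of the summed EGLN1 and EGLN3 level in parental and KO-labelled DMSO libraries, and 24.1% ± 0.28 and 27.0% ± 0.64 in neratinib. HK1 held 76.1% ± 0.20, 75.9% ± 0.35 and 76.6% ± 0.42 of hexokinase in the first 3 groups and 80.9% ± 0.28 in KO-labelled neratinib.

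**Figure D4:**
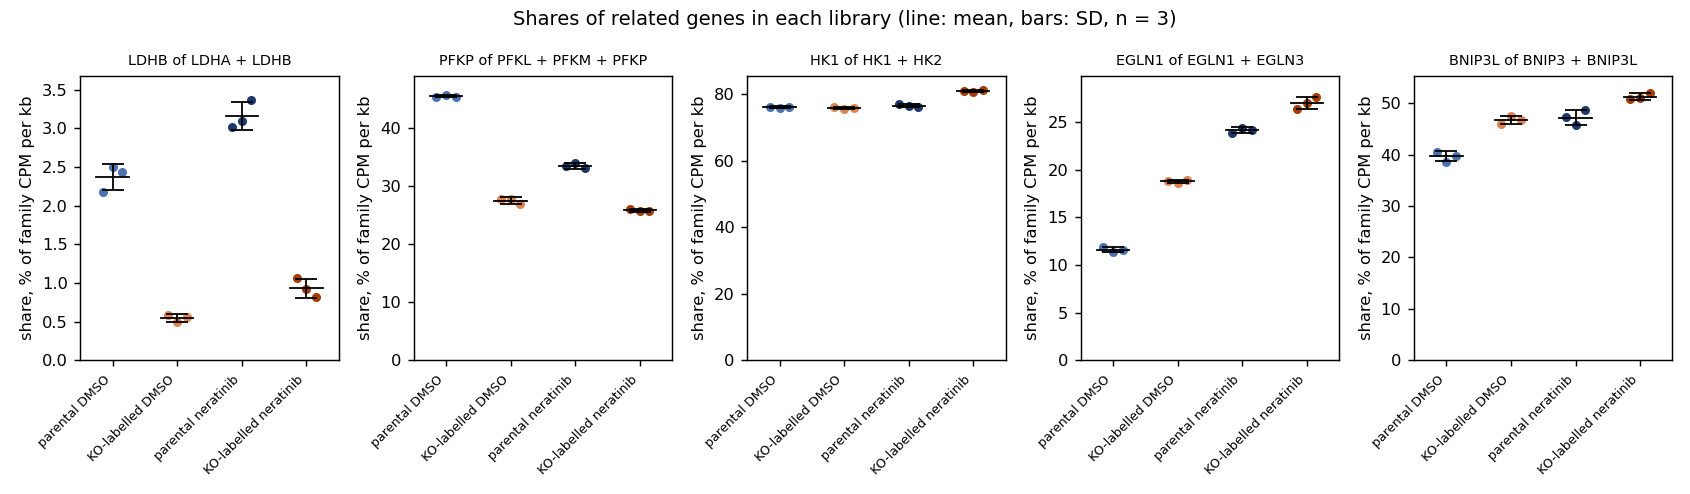
Share of LDHB, PFKP, HK1, EGLN1 and BNIP3L in the summed CPM per kilobase of each family, one point per library, with the mean as a line and the SD as bars (n = 3). PFKP and LDHB shares are lower in all 6 KO-labelled libraries than in the parental libraries of the same treatment.

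The wider pathway was read from 4 further lists. Their counts stand beside 41.8% of all tested genes that rose and 38.9% that fell with neratinib in parental cells, and 38.9% and 38.4% in KO-labelled cells. By genotype the shares over all tested genes were 36% higher and 35.6% lower in DMSO, and 34.7% and 36.9% in neratinib. Of 12 HIF pathway regulators, 11 were tested; 6 rose and 4 fell with neratinib in parental cells and 6 rose and 3 fell in KO-labelled cells. CITED2, which competes with HIF for the coactivators CREBBP and EP300, rose the most, with log2 changes of 1.85 and 1.38, and LIMD1, a VHL partner, fell the most, by 0.75 and 0.52. By genotype 4 were higher and 3 lower in DMSO, and 5 were higher and 5 lower in neratinib. The largest differences were those of ARNT2, an ARNT relative, with log2 differences of 1.49 in DMSO and 1.96 in neratinib, and of EGLN2, the third hydroxylase, with -1.43 and -1.45. EGLN2 had few counts in every group, which limits its values (SE 0.235 and 0.234). Its overlap with other genes was not checked, so a low count need not be a low level. It was at 1.19 ± 0.207 and 0.440 ± 0.096 CPM in parental and KO-labelled DMSO libraries, and at 1.21 ± 0.133 and 0.450 ± 0.0418 CPM in neratinib. EPAS1, which encodes HIF-2 alpha, was at 20.7 ± 0.610 and 20.6 ± 0.984 CPM in parental and KO-labelled DMSO and at 12.7 ± 0.652 and 20.8 ± 0.523 CPM in neratinib libraries.

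Of 26 other hypoxia-inducible genes 25 were tested, and with neratinib 9 rose and 14 fell in parental cells and 8 rose and 14 fell in KO-labelled cells. MXI1, a MYC antagonist, rose the most in parental cells, from 12.3 ± 0.588 to 61.9 ± 0.502 CPM (log2 change 2.33), and BHLHE40, a circadian repressor, fell the most (-2.04). In KO-labelled cells MAFF, a small MAF factor, rose the most (2.26) and STC2, stanniocalcin 2, fell the most (-2.28). By genotype 13 were higher and 6 lower in DMSO, and 10 higher and 6 lower in neratinib. EFNA3, an ephrin ligand, was the highest in DMSO (log2 difference 1.59), CA12, a second membrane carbonic anhydrase, the highest in neratinib (1.13), and PLIN2, a lipid droplet coat protein, the lowest in both (-2.45 and -2.79).

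Of 35 other glucose and pyruvate genes 28 were tested, and with neratinib 13 rose and 14 fell in parental cells and 13 rose and 12 fell in KO-labelled cells. PDK4, a relative of PDK1, rose the most, from 2.15 ± 0.331 to 16.2 ± 0.659 CPM in parental cells (log2 change 2.92) and from 0.533 ± 0.131 to 12.97 ± 0.530 CPM in KO-labelled cells (4.60), while PDK1 fell in both. TIGAR, a fructose-2,6-bisphosphatase, fell the most (-1.70 and -2.08). By genotype 8 were higher and 9 lower in DMSO, and 8 higher and 15 lower in neratinib. ALDOC, the brain-type aldolase, was the lowest, with DMSO levels of 21.0 ± 1.03 (parental) and 0.835 ± 0.163 CPM (KO-labelled; log2 difference -4.66, adjusted p = 4.96e-36), and SLC2A12, a glucose transporter, the highest in DMSO (0.90). ARRDC4, an arrestin that lowers glucose uptake, was the highest in neratinib (1.56).

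All 7 pentose phosphate genes were tested; 6 fell and 1 rose with neratinib in parental cells, and 5 fell and 1 rose in KO-labelled cells. RPIA, ribose-5-phosphate isomerase, was the one that rose (log2 change 0.50 and 0.81). By genotype 4 were higher and 3 lower in DMSO, and 6 higher and 1 lower in neratinib. PGLS, 6-phosphogluconolactonase, was the highest in DMSO (log2 difference 0.34), and PGD, 6-phosphogluconate dehydrogenase, the lowest in both (-0.22 and -0.09).

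MYC, a regulator of glycolysis genes, stood at 9.34, 9.61 and 11.1 CPM in parental DMSO, 1.42, 1.52 and 1.625 in KO-labelled DMSO, 9.055, 8.398 and 7.74 in parental neratinib and 1.21, 1.25 and 1.20 in KO-labelled neratinib libraries. All 6 KO-labelled libraries lay far below all parental ones, with log2 differences of -2.72 in DMSO (adjusted p = 6.29e-26) and -2.78 in neratinib (adjusted p = 7.99e-25). With neratinib MYC fell by 0.25 in parental cells (adjusted p = 0.00219), and its log2 change in KO-labelled cells was -0.31 (adjusted p = 0.0947). Whether MYC bears on the members' differences was not tested.

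**Figure D5:**
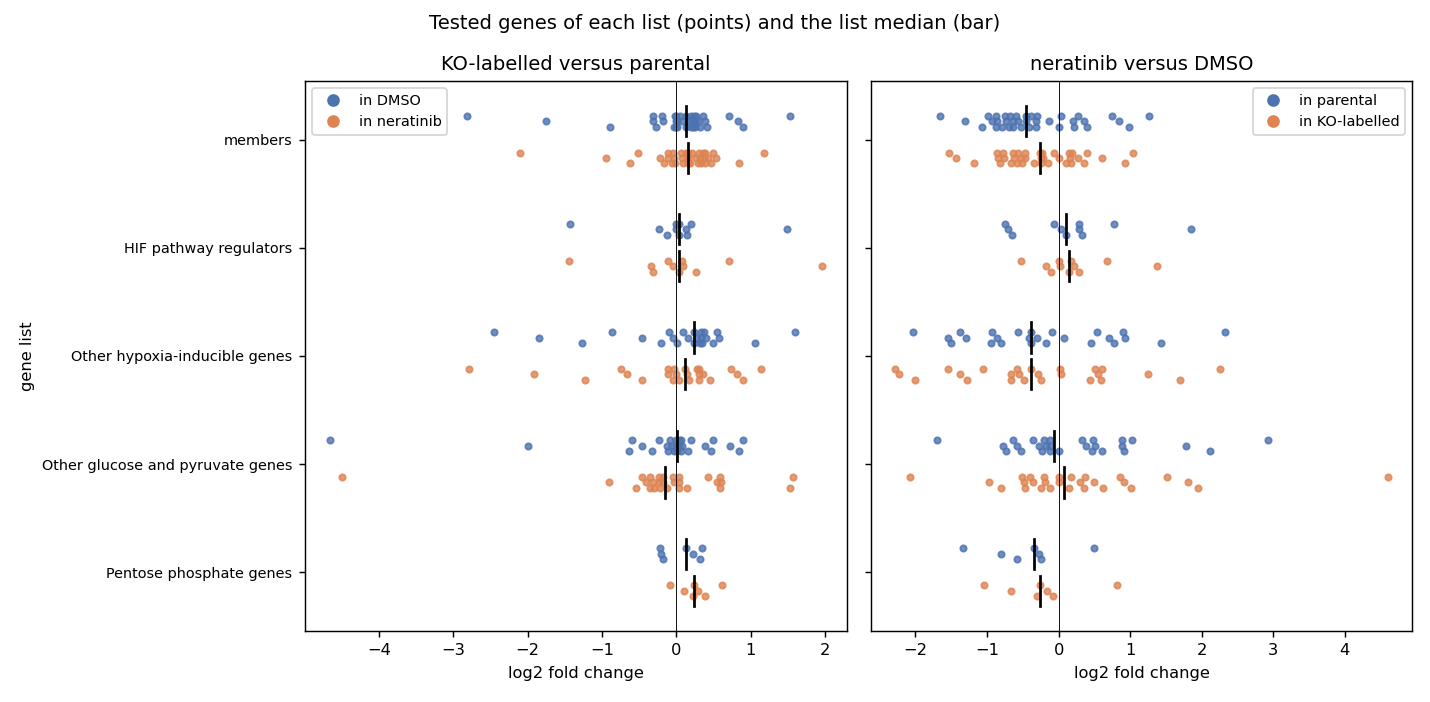
Log2 fold change of each tested gene (points) of the members and of the 4 further lists, for KO-labelled against parental cells (left) and neratinib against DMSO (right), with colours for the 2 conditions of each panel and a bar at the list's median. With neratinib the members' medians are -0.46 and -0.26, and the further lists spread to both sides of 0.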

How the data were processed

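RNA was measured in 12 libraries, 3 for each of 4 groups. The authors deposited 1 table of read counts per gene symbol, not normalised. Per the submitters' processing notes FastQC 0.11.7, STAR 2.7.9, edgeR 3.40.2 and the build GRCh38 (hg38) were used; the annotation, the counter and its strand setting are not given in the sources used here. Per the labels' protocols, reads were single, of 50 bases, from a kit (TruSeq v2) that does not mark strand, so overlapping genes and near-identical copies can share reads. Groups and replicate numbers came from the titles and genotype and treatment labels. The 581 unnamed lines of 28395 (0.0877% to 0.124% of counts) were left out.

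The counts were filtered with filterByExpr, scaled by TMM and fitted in R 4.3.3 with edgeR 4.0.16 (quasi-likelihood, 4 groups, 8 residual degrees of freedom). P-values were adjusted by Benjamini-Hochberg over 16208 genes, and a call needs an adjusted p below 0.05. CPM values use the TMM-scaled library sizes. The SE is the log2 change divided by the square root of F. The members and all lists were chosen with earlier results of these data known. Every member is accounted for, with values per library for members called at 2-fold or more, HIF1A, and those with the largest change of their role; of each further list the largest called change in each direction is named, except where a gene is not reported here. Alternatives were DESeq2 1.42.0, other scalings and filters, a replicate block, only the groups compared, and each library left out. Replicate libraries differed by 1.37 to 3.57 times the chi-square per degree of freedom of counting noise, so none was taken as a duplicate.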

Additional observations from a re-analysis of the deposited data

Results flagged for a closer look

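Genes of the lists are given here where the neratinib responses of KO-labelled and parental cells differed by at least 1.5-fold in edgeR's test of the difference itself. Values are log2, KO-labelled minus parental response, followed by each response. Among the members, ADM had a difference of -0.82 (adjusted p = 0.000333), with responses of 0.99 (parental) and 0.17 (KO-labelled). PFKP had a difference of 0.67 (adjusted p = 3.42e-18), with responses of -0.93 (parental) and -0.26 (KO-labelled). LDHB had a difference of 0.81 (adjusted p = 3.28e-05), with responses of -0.88 (parental) and -0.07 (KO-labelled).

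Among the HIF regulators and other hypoxia-inducible genes, EPAS1 had a difference of 0.72 (adjusted p = 1.61e-11), with responses of -0.70 (parental) and 0.01 (KO-labelled). CA12 had a difference of 0.89 (adjusted p = 1.11e-18), with responses of -1.55 (parental) and -0.66 (KO-labelled). MAFF had a difference of 0.83 (adjusted p = 1.68e-05), with responses of 1.43 (parental) and 2.26 (KO-labelled). Differences in the other direction were found for 4 of them. MXI1 had a difference of -0.64 (adjusted p = 5.33e-11), with responses of 2.33 (parental) and 1.69 (KO-labelled). STC2 had a difference of -0.78 (adjusted p = 7.95e-17), with responses of -1.50 (parental) and -2.28 (KO-labelled). EFNA3 had a difference of -0.85 (adjusted p = 1.21e-14), with responses of -1.38 (parental) and -2.23 (KO-labelled). PPP1R3C had a difference of -0.61 (adjusted p = 2.93e-06), with responses of -0.93 (parental) and -1.54 (KO-labelled).

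The largest differences belonged to genes of glucose and pyruvate use. PDK4 had a difference of 1.68 (adjusted p = 2.07e-09), with responses of 2.92 (parental) and 4.60 (KO-labelled). TXNIP had a difference of 1.36 (adjusted p = 1.00e-34), with responses of 0.60 (parental) and 1.95 (KO-labelled). ARRDC4 had a difference of 1.79 (adjusted p = 7.74e-28), with responses of -0.78 (parental) and 1.01 (KO-labelled). ARRDC4 was called in both genotypes with opposite signs. Groups of 3 libraries were not searched for single outlying libraries.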

How the results depend on the processing

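No member result that was called in the main or the alternative fit reversed its direction. Changes of sign in results called in neither were not counted. The counts of members at 1.5-fold or more changed by over 1.5 times under a filter of a mean of at least 5 CPM alone, which leaves CA9, LDHB and ADM out of the test by construction: 1 lower in KO-labelled cells in DMSO, 0 lower in neratinib, and 1 higher and 0 lower for the difference of responses. Leaving out each library in turn gave 4 to 4 higher and 3 to 3 lower in DMSO, 2 to 2 and 2 to 3 in neratinib by genotype, 4 to 4 higher and 16 to 17 lower with neratinib in parental cells, 2 to 3 and 11 to 12 in KO-labelled cells, and 2 to 2 and 1 to 1 for the difference of responses. With library totals alone as the scale, 13 and 9 members fell at that size in parental and KO-labelled cells, and the median over all genes was 0.12 and 0.07. The replicate block left all 10 counts as they were (16 and 11 falls with neratinib), and 182 of 185 member results kept their call. CA9 with neratinib in parental cells passed with it (0.36, adjusted p = 0.0494). That CA9 rise also passed with library totals alone (0.43, adjusted p = 0.0169) and with only the 2 groups compared (0.35, adjusted p = 0.0469). It passed too without parental DMSO replicate 3 or KO-labelled neratinib replicate 2 or 3 (adjusted p 0.0132 to 0.0484). Same-numbered libraries did not deviate together (correlations -0.05 to 0.04; 4 of 12 libraries correlated best with their own number), so they share only a number. ADM in KO-labelled against parental neratinib was under 1.5-fold without parental neratinib replicate 3 (-0.53) or KO-labelled neratinib replicate 3 (-0.55). Leaving out mitochondrial genes was chosen after seeing the data. Depth limits CA9, ADM and the untested ANGPTL4 and SLC2A3, which had 10 to 26 counts a group.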
